A study of Mus musculus with 24 samples.

Results

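RNA of sorted cells with an active guanylin reporter (Venus-positive) was compared with that of non-fluorescent cells (Venus-negative) from the ileum, the last part of the small intestine. The comparison used every library labelled ileum, which were 3 of Venus-positive and 3 of Venus-negative cells among the 24 libraries of the series. The mice were Guca2a-Venus transgenic animals of 1 founder line backcrossed to C57Bl6J, kept on chow. In them the yellow fluorescent protein Venus replaces the *Guca2a* coding sequence on the bacterial artificial chromosome RP23-104G3. Positive and negative cells both carried this transgene, so the groups differ in fluorescence and not in genotype or treatment. The reporter follows the guanylin promoter wherever it is active, so the positive gate can hold several cell types, and the negative gate held non-fluorescent cells of any type. Dead cells, events without a nucleus and cells with CD45, the antigen of blood cells, had been gated out of both. The study used 3 mice for each region, but the labels do not say which library came from which mouse, so no pairing was used and p-values measure the spread between these libraries. The duodenum, jejunum and colon of the same design were used only to ask where the ileum differed.

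Guanylin is a small peptide that epithelial cells release into the gut lumen, where it and its relative uroguanylin activate guanylate cyclase C on the brush border. The cyclic GMP formed there opens the chloride channel CFTR and inhibits sodium uptake, which moves water into the lumen. In the ileum, stem cells at the crypt base supply absorptive enterocytes, which migrate to the villus tip, and secretory cells, which include mucus-filled goblet cells, antimicrobial Paneth cells, hormone-releasing enteroendocrine cells and chemosensory tuft cells. The ileum is also the site where bile acids and vitamin B12 are recovered from the lumen.

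The positive libraries held 13983432, 14782152 and 10634367 counts on genes and the negative libraries 15672116, 23063124 and 16865531. Transcripts of the mitochondrial genome took 41.0 to 55.4% of the counts in positive libraries and 64.7 to 70.9% in negative libraries, and 15776 to 17119 genes against 18472 to 20770 genes had at least 1 count. A floor of detection of 3 counts corresponded to 0.106 to 0.221 CPM, the count scaled by library size and TMM factor. Within a sort the libraries varied beyond the error of counting (chi-square per degree of freedom 33.4 to 93.2), with Pearson correlations of log2 CPM across genes of 0.940 to 0.971. In sorted bulk RNA, a larger number of cells of one type and more RNA per cell cannot be told apart. With the fit restricted to protein-coding genes outside the mitochondrial genome, 2708 genes were higher and 2899 lower, against 2688 and 3101 with all genes.

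Of 15044 genes tested, 5789 (38.5%) differed between the sorts at an adjusted p under 0.05 in edgeR's quasi-likelihood test. Of all genes, 17.9% were higher in positive cells (2688 genes) and 20.6% were lower (3101 genes). The median log2 fold change (positive over negative) over all genes tested was -0.27. A log2 fold change of 3 or more was found in 485 of the higher genes, and one of -3 or less in 783 of the lower genes. The 3 positive libraries all lay above the 3 negative libraries for 2573 of the higher genes, and below them for 2981 of the lower genes. Over all genes, called or not, they lay above for 3487 and below for 4533. Statements below that groups did not overlap are to be read against these counts. Every list below is given by its counts and its median, to be read against these shares of 17.9% and 20.6% and this median. The lists were chosen with earlier results of these libraries known.

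Changes were ranked among protein-coding genes past the threshold with a mean of at least 5 CPM in the higher sort. Genes whose sorts overlapped were left out of the ranking. The largest rise was that of *Ido1*, which encodes the enzyme that opens tryptophan to kynurenine. *Ido1* stood at 8.72, 20.9 and 12.3 CPM in the positive libraries and at 0.0413, 0.388 and 0.111 CPM in the negative libraries, a log2 fold change of 6.12 (SE 0.62, adjusted p = 2.85e-08). Lack of overlap was required for ranking, and so is no added support for *Ido1*. Behind it came *Nat8f5* (5.63), *Enpp7* (5.33), the alkaline sphingomyelinase of bile and gut, the unnamed gene model *Gm9817*, the manganese exporter *Slc30a10* (5.18), the brush-border phospholipase *Plb1* (5.15), *Frmd3* (5.05), the amino acid transporter *Slc7a15* (4.93), *Hes2* (4.86), *Apol9a* (4.83), the Hippo pathway kinase *Lats2* (4.81) and the mucin *Muc2* (4.79). The genes that fell furthest included the proto-oncogene *Myc*, at 1.08, 0.961 and 0.221 CPM against 21.4, 24.5 and 19.5 CPM (log2 fold change -4.80, SE 0.68, adjusted p = 2.50e-06), and *Cd320*, the receptor that takes up transcobalamin-bound vitamin B12 in dividing cells (-4.72). With them were *Eif2b3* (-4.91), a subunit of the translation factor eIF2B, the mitotic genes *Ercc6l* (-4.80) and *Spdl1* (-4.79), *Pxdn* (-4.76), *Cep68*, *Cyp39a1* (-4.53), *Rimbp2*, *Grwd1* and *Rgs12*.

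*Plekhh2*, a membrane-associated protein, had the largest fitted fall, and it rested on 2 negative libraries. Its counts were 0, 0 and 1 in the positive libraries and 9, 6282 and 16165 in the negative libraries of the ileum (log2 fold change -13.65, SE 3.66, adjusted p = 0.00374). The same gene had 12777 counts in 1 positive library of the jejunum and 0 in the other positive ones, and 17973 counts in 1 positive library of the colon against 8 and 28 in the others. In the duodenum, as in the ileum, 2 negative libraries were high (7175 and 11474 counts, 4 in the remaining one) and the positive ones had 2 to 4 counts. High counts thus came in 1 or 2 of the 3 libraries of a sort, negative in ileum and duodenum and positive in jejunum and colon.

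Expression was more concentrated in positive cells. The 15 nuclear protein-coding genes of highest mean CPM, not scaled by length, held 13.1% of nuclear protein-coding counts in positive cells and 7.44% in negative cells. It took 447 genes to reach 50% of those counts in positive cells and 1100 genes in negative cells. Per kb of exon, the highest level in positive cells was that of the alpha-defensin *Defa24*, an antimicrobial peptide of Paneth cell granules (9041 CPM per kb). It was followed by the lectin *Reg3b* (5048), the apolipoprotein *Apoa1* (2887), the bile acid binding protein *Fabp6* (2717), *Defa30* (1869), lysozyme *Lyz1* (1362), the fatty acid binding protein *Fabp2* (1276), *Reg3g* (1177) and the aminopeptidase *Anpep* (1107). *Spink4*, *Selenop*, *Phgr1*, *Zg16*, *Defa21* and *Tff3* completed the 15 highest per kb, between 918 and 1035 CPM per kb. Products of enterocytes, goblet cells and Paneth cells all stood among the most abundant transcripts of one sort.

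In negative cells *Reg3b* also led per kb of exon (1184 CPM per kb), followed by the ribosomal stalk protein *Rplp1* (1009), the galectin *Lgals2* (800), the crypt base gene *Olfm4* (676) and the linker histone *Hist1h1b* (672). *Hist2h2bb* (553), *Lgals4* (532), *Rpl8* (478), *Hist1h1a* (385), *Krt19* (371), *Hist1h1c* (352) and *Ankrd60* (345) came next, with *Defa24* (403), *Reg3g* (318) and *Fabp6* (318) still among them. Levels of *Lgals4* and *Krt19* did not pass the test between the sorts (log2 fold changes 0.24 and -0.71, adjusted p = 0.631 and 0.162). Reads that map to several places were not counted, so levels of defensins, Reg lectins, histones and ribosomal proteins, which have close copies, are uncertain.

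**Figure D1:**
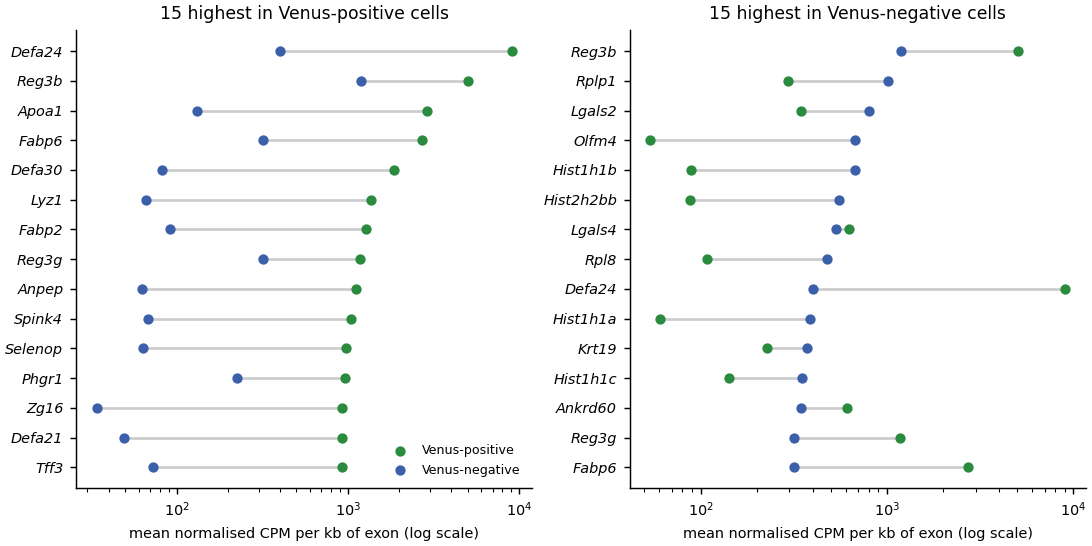
The 15 nuclear protein-coding genes with the highest mean level per kb of exon in each sort of the ileum, in CPM per kb on a log axis, with a point for positive and a point for negative cells. *Defa24* reached 9041 CPM per kb in positive cells, and *Reg3b* led in negative cells at 1184 CPM per kb.

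*Guca2a*, the gene whose promoter drives the reporter, checked the sort. Its level was 221, 161 and 191 CPM in the positive libraries and 23.5, 22.5 and 32.6 CPM in the negative libraries, 7.28 times higher in the mean (log2 fold change 2.86, SE 0.34, adjusted p = 2.47e-07). The groups did not overlap, and the negative cells held transcripts far above the floor of detection. The transgene keeps the untranslated parts of *Guca2a*, so some of these reads can come from it.

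*Guca2b*, which encodes uroguanylin, differed more, with 392, 437 and 715 CPM against 23.5, 26.4 and 42.0 CPM, 16.8 times higher in positive cells (log2 fold change 4.07, SE 0.34, adjusted p = 2.77e-09). Both genes lie on chromosome 4 of GRCm38, *Guca2a* on the plus strand at chr4:119637704-119639471 and *Guca2b* on the minus strand at chr4:119656607-119658954. How far the artificial chromosome reaches beyond these was not examined here. Of the neighbours, *Foxj3*, a forkhead factor, was at 140, 125 and 138 CPM against 66.6, 72.6 and 66.6 CPM (log2 fold change 0.97, adjusted p = 0.00326), and *Frg2f1* did not pass the test (0.29, adjusted p = 0.623).

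The receptor gene *Gucy2c* stood at 106, 119 and 138 CPM in positive and 72.4, 77.4 and 48.1 CPM in negative cells (log2 fold change 0.88, SE 0.26, adjusted p = 0.00763). These groups did not overlap either, but without the third negative library the value was 0.69 with an adjusted p of 0.0609. Of the 9 genes of the guanylin system, 8 were higher and 1 was lower, with a median log2 fold change of 2.64. The higher ones included the scaffold proteins of the apical membrane *Pdzk1* (4.54) and *Slc9a3r1* (3.63) and the sodium-proton exchanger *Slc9a3* (2.64), which cyclic GMP inhibits. The exception was *Cftr*, at 68.7, 15.6 and 36.4 CPM in positive and 87.9, 67.1 and 87.7 CPM in negative cells (log2 fold change -1.01, SE 0.37, adjusted p = 0.0303). The *Cftr* groups overlapped, and the call was lost without the second positive library (-0.63, adjusted p = 0.193) and without the third positive (adjusted p = 0.0951), the first negative (0.0724) or the third negative library (0.0729), each with a value of -0.95.

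Absorptive enterocyte genes rose as a group. All 20 enterocyte markers were higher in positive cells, with a median log2 fold change of 3.49, and their summed level was 11102 to 21314 CPM in positive against 904 to 1498 CPM in negative libraries. *Alpi*, the intestinal alkaline phosphatase, stood at 68.8, 151 and 222 CPM against 4.74, 11 and 6.43 CPM (log2 fold change 4.31, SE 0.59, adjusted p = 1.82e-06). *Mep1b*, a subunit of the brush-border protease meprin, stood at 497, 838 and 932 CPM against 41.1, 92.3 and 103 CPM (3.26, SE 0.44, adjusted p = 1.56e-06). In both, each positive library exceeded all 3 negative libraries. *Apoa1*, the main protein of high-density lipoprotein, rose from 67.2, 203 and 216 CPM in negative to 1633, 4086 and 4987 CPM in positive libraries (4.46, adjusted p = 7.76e-08), and *Treh*, which splits trehalose, and *Rbp2*, which carries retinol, rose by 4.44 and 4.36. The first library of each sort was the lowest for *Alpi*, *Mep1b*, *Apoa1* and *Rbp2*.

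The promoters of enterocyte genes are shown because these genes moved together and are textbook targets of the nuclear receptor HNF4. The letters CAAAGNNCA, the core of the HNF4 element, were searched on both strands in RefSeq promoters that reach from 250 bases before to 50 bases after the start site (build GRCm38.p6). They were found in 8 of the 18 enterocyte markers with a promoter (44.4%) and in 6.37% of all 27025 genes with one. Each line gives 100 bases of the promoter placed around the nearest match before the start site, ending no later than the base before that site, for *Treh* at chr9:44673116-44673215 (plus strand), *Rbp2* at chr9:98490433-98490532 (plus strand) and *Alpi* at chr1:87101607-87101706 (minus strand), written along the gene's strand with the matched letters in capitals.

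Treh: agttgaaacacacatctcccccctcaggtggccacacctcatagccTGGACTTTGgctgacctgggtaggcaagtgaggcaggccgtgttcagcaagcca

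Rbp2: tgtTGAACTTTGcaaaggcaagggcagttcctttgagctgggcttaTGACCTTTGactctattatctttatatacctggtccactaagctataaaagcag

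Alpi: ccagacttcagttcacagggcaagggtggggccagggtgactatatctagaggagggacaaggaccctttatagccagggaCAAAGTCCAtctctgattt

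The matches nearest the start sites lay 71, 58 and 19 bases before them, and *Rbp2* had 2. None overlapped a match of another motif searched. A match describes letters and not binding. *Hnf4g*, which encodes one HNF4 protein, was at 166, 167 and 234 CPM in positive and 29.1, 32 and 43.2 CPM in negative cells (log2 fold change 2.44, adjusted p = 4.64e-06), and *Hnf4a*, which encodes the other, was 1.42 higher (adjusted p = 0.000243).

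Goblet cell genes were higher in the same libraries. Of 17 goblet markers tested, 13 were higher and none was lower, with a median log2 fold change of 3.37. *Muc2*, the gel-forming mucin of intestinal mucus, stood at 516, 206 and 397 CPM against 8.46, 16.7 and 15.2 CPM, 27.7 times higher in the mean (log2 fold change 4.79, SE 0.47, adjusted p = 2.38e-08). The mucus proteins *Fcgbp* (4197, 1624 and 2929 against 118, 129 and 125 CPM), *Clca1* and *Zg16* rose by 4.55, 4.71 and 4.77, and *Spink4* rose by 3.93. None of these groups overlapped. The 4 members that did not pass included the factor *Foxa3* (0.42, adjusted p = 0.488) and *Retnlb*, an antibacterial protein at 1.40, 75.0 and 1.18 CPM in positive and 0.124, 4.69 and 0.277 CPM in negative cells (3.87, adjusted p = 0.110). The second library of each sort held most of the *Retnlb* counts, and without the second positive one its value was -0.45. *Retnlb* passed with no filter on low counts (3.95, adjusted p = 3.56e-25) and in a fit of the 6 ileum libraries alone (3.95, 0.0280).

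Paneth cell genes rose by the largest median of the cell type lists, 4.40, with 19 of 20 tested members higher and none lower. *Lyz1* stood at 2101, 1016 and 2043 CPM against 96.8, 63.9 and 87.4 CPM (log2 fold change 4.38, SE 0.74, adjusted p = 2.71e-05). *Defa24* stood at 5837, 2266 and 3262 CPM against 249, 121 and 137 CPM (4.49, adjusted p = 9.25e-06). All 11 alpha-defensins tested were higher, between 3.52 and 4.70, with *Defa3* (4.70), *Defa17* (4.64) and *Defa30* (4.52) in front, and *Mptx2*, a mucosal pentraxin, and *Ang4*, an antimicrobial ribonuclease, rose by 4.67 and 4.50. *Mptx1* alone did not pass (0.80, adjusted p = 0.519). In the Reg family of secreted lectins, *Reg3a* (2.36), *Reg3b* (2.09), *Reg3g* (1.89) and *Reg4* (1.75) were higher and *Reg1* was lower (-2.25), a call lost in a fit of the 6 ileum libraries alone (-2.22, adjusted p = 0.0979). The call for *Reg3g* was lost without the second positive (1.54, adjusted p = 0.0804) or the first negative library (1.44, adjusted p = 0.0955), and that for *Reg4* without the first positive library (1.08, adjusted p = 0.206) or the second (1.63) or the third negative library (1.62) and with at least 10 counts in every ileum library (1.57, adjusted p = 0.0536).

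**Figure D2:**
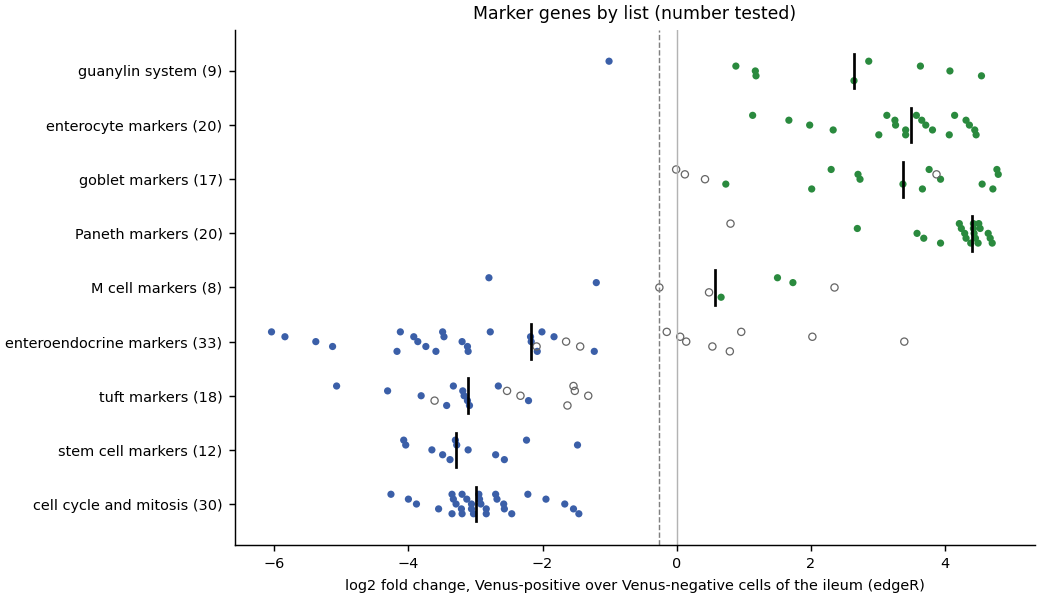
Log2 fold change (Venus-positive over Venus-negative, ileum) of every tested gene of 9 marker lists, with filled points past the threshold, open points not past it, a black line at the median of each list and a dashed line at the median of all genes, -0.27. Enterocyte, goblet and Paneth lists have medians of 3.49, 3.37 and 4.40, and enteroendocrine, tuft and stem cell lists of -2.18, -3.11 and -3.29.

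The other secretory lineages went the opposite way. None of 33 enteroendocrine genes tested was higher and 22 were lower, with a median of -2.18. *Chga*, the granule protein chromogranin A, stood at 6.46, 9.13 and 5.0 CPM in positive and 115, 118 and 42.7 CPM in negative cells (log2 fold change -3.74, SE 0.55, adjusted p = 4.68e-06). Somatostatin *Sst* (-4.12) and proglucagon *Gcg* (-3.92) fell with it, as did the endocrine transcription factors *Nkx2-2* (-6.04) and *Insm1* (-5.38), the glial factor receptor *Gfra3* (-4.17) and the irritant channel *Trpa1*. *Neurog3*, the factor that starts the endocrine lineage, had no count in any positive library and was at least 2.45-fold lower than in negative cells, taking the floor of 3 counts per library, and *Trpa1*, also without a count, at least 1.47-fold lower. *Trpa1* did not pass without the second negative library (-3.96, adjusted p = 0.0507).

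Of the 11 members that did not pass, 7 had values above 0. Insulin-like peptide *Insl5* had 3.39 (adjusted p = 0.0575) from 1.08 CPM in the second positive library and no count in the other positive ones (-2.10 without that library), and ghrelin, *Ghrl*, stood at 7.16, 2.52 and 0.0736 CPM against 1.69, 0.564 and 0.111 CPM (2.02, adjusted p = 0.0538). *Ghrl* passed without the third positive (2.57, adjusted p = 0.00851) or the first negative library (3.15, 0.0155), and *Insl5* without the first positive (3.98, 0.0200), the third positive (3.92, 0.0291) or the second negative library (5.44, 0.0467). With no filter on low counts *Ghrl* (adjusted p = 0.000100) and *Insl5* (0.00712) passed, and *Ghrl* also with the i5 index as a covariate (1.95, 0.0371). The amine transporter *Slc18a1* had 0.79 and the decarboxylase *Ddc* 0.53. *Pyy*, the peptide of distal endocrine cells, was at 3.71, 6.43 and 5.0 CPM in positive and 1.94, 7.79 and 3.94 CPM in negative cells (log2 fold change 0.14, adjusted p = 0.880), with overlapping groups. *Sct*, which encodes secretin, stood at 18.9, 15.8 and 20.1 CPM against 5.86, 9.38 and 13.0 CPM (0.96, adjusted p = 0.0812). *Sct* passed with no filter on low counts (1.03, adjusted p = 0.0184) and in a fit of the 6 ileum libraries alone (1.02, 0.0201). Of 18 tuft cell genes tested, 11 were lower and none was higher, with a median of -3.11. The taste channel *Trpm5* stood at 0.538, 0.661 and 1.03 CPM against 8.17, 12.0 and 11 CPM (-3.81, SE 0.65, adjusted p = 3.20e-05), and the phospholipase *Plcb2* (-4.31) and the prostaglandin synthase *Hpgds* (-3.43) fell too. The taste G protein *Gnat3* had no count in positive libraries, at least 1.44-fold lower, and *Alox5ap* had a value of -3.33, but *Gnat3* did not pass when any 1 library was left out (adjusted p = 0.0537 to 0.141). *Alox5ap* did not pass without the first positive (adjusted p = 0.0649), the third positive (0.0943) or the third negative library (0.0901).

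All 12 stem cell genes were lower, with a median of -3.29. *Lgr5*, the R-spondin receptor that marks crypt base columnar cells, stood at 2.80, 0.961 and 0.809 CPM in positive and 41.8, 17.2 and 19.2 CPM in negative cells (log2 fold change -4.07, SE 0.77, adjusted p = 0.000102). *Olfm4* stood at 179, 88.1 and 212 CPM against 1679, 821 and 3506 CPM (-3.65, adjusted p = 3.82e-05), and *Msi1* (-4.04), *Cdca7* (-3.49) and *Smoc2* (-3.38) also fell. Positive libraries lay below all negative libraries for each of these 5 genes. Genes of M cells, which sample antigen over lymphoid follicles, were mixed, with 3 of 8 higher and 2 lower. The chemokine *Ccl9* (1.73), *Marcksl1* (1.5) and *Tnfrsf11a* (0.66) were higher and the factor *Spib* (-2.80) and *Anxa5* (-1.20) lower, but each lost its call in at least 1 fit with a library left out. For *Ccl9* this was the first negative library (1.34, adjusted p = 0.0559). For *Marcksl1* it was the second positive (0.97, adjusted p = 0.169), the third positive (1.31, 0.0718) or first negative library (1.36, 0.0676), and for *Spib* the second positive (-2.71, 0.0596), the third positive (-2.37, 0.0830) or the third negative library (-2.58, 0.0532). *Tnfrsf11a* passed only without the third positive library and *Anxa5* only without the first positive one, with adjusted p of 0.0654 to 0.205 and 0.0688 to 0.166 in the other fits with a library left out.

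**Figure D3:**
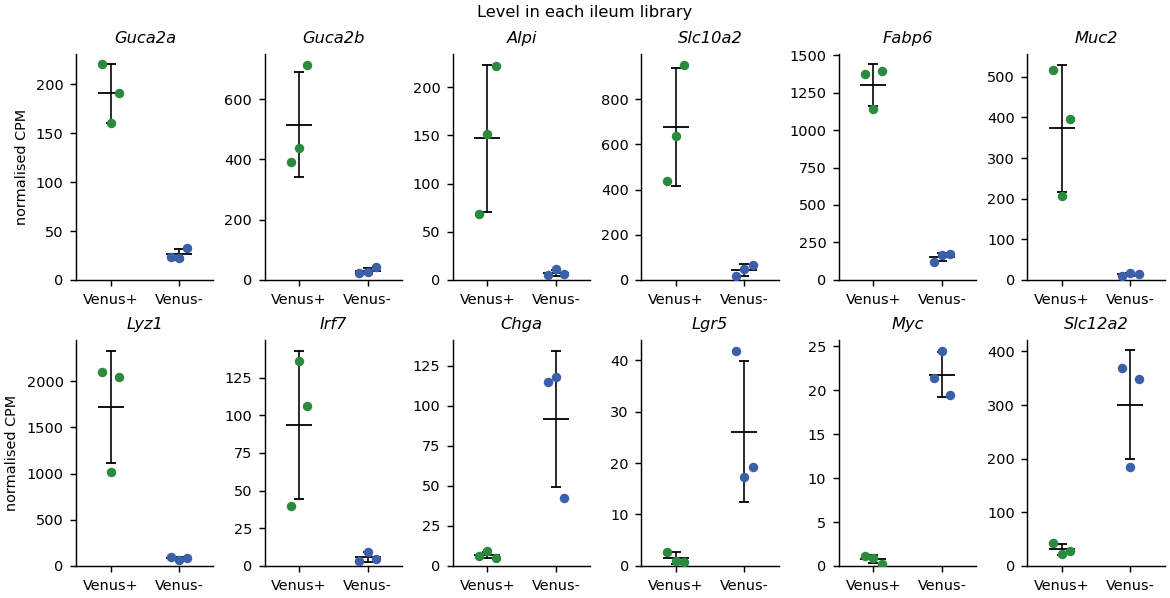
CPM of 12 genes in each ileum library on linear axes that start at 0, with a point for each of the 3 positive and 3 negative libraries and bars for the mean and SD. *Guca2a*, *Guca2b*, *Alpi*, *Slc10a2*, *Fabp6*, *Muc2*, *Lyz1* and *Irf7* are higher in every positive library than in any negative one, and *Chga*, *Lgr5*, *Myc* and *Slc12a2* are lower.

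Markers of cells from outside the epithelium were low in both sorts. Genes of T and NK cells summed to 1.40 to 25.5 CPM in positive and 1.98 to 25.5 CPM in negative libraries, with none of 9 past the test, and *Ptprc*, which encodes the CD45 used to gate cells out, was at 0.294 to 4.39 CPM and 0.942 to 3.42 CPM (log2 fold change -0.13, adjusted p = 0.944). Sums for B and plasma cells were 1.91 to 8.83 CPM against 1.33 to 6.77 CPM, with 1 of 4 lower (*Pou2af1*), for myeloid cells 1.68 to 5.28 CPM against 3.55 to 4.99 CPM, with *Lyz2* higher and *Cd68* and *Itgam* lower of 3, and for endothelium 2.28 to 4.31 CPM against 2.22 to 4.0 CPM, with *Esam* lower of 4. The single glial gene tested, at 0 to 0.162 CPM against 0.206 to 1.38 CPM, did not pass. *Cd68* and *Esam* had no count in positive libraries and were at least 3.99-fold and 5.09-fold lower in them. *Cd68* did not pass without the first, the second or the third positive library (adjusted p = 0.0636, 0.0684 and 0.0656) or the first negative one (0.0860), and *Pou2af1*, of the fits with 1 library left out, passed only in that without the first negative one (0.0757 to 0.111 in the others). *Lyz2* did not pass without the first (2.87, adjusted p = 0.0618) or second negative library (2.96, 0.0588), nor *Itgam* without the second positive one (-2.89, 0.0515).

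The fibroblast and muscle list separated, with sums of 1.18 to 3.79 CPM in positive and 8.50 to 25.4 CPM in negative libraries. *Dcn*, the collagen-binding decorin, had no count in positive libraries and stood at 3.75, 0.00 and 2.11 CPM in negative libraries. In the mean it was at least 10.4-fold lower, but the second negative library had no count either, so the groups overlapped. *Col1a1* (-5.72), *Col3a1* (-4.55) and *Vim* (-3.02) were lower, while *Tagln* was higher at 0.323, 0.661 and 1.32 CPM against at most 0.0554 CPM. *Col1a1* did not pass without the first positive (adjusted p = 0.0993), second positive (0.0570), the third positive (0.104) or first negative library (0.223), *Col3a1* without the first positive (0.104), the third positive (0.112) or first negative library (0.241), and *Tagln* without the second positive (0.0609), the third positive (0.106), first negative (0.123) or second negative library (0.126). Epithelial genes were high in both sorts, with *Epcam*, the adhesion molecule of epithelia, at 692 to 1643 CPM and 376 to 432 CPM. The part of these stromal transcripts in the lower genes was not tested.

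The bile acid recovery pathway of the ileum rose nearly throughout, with 8 of 9 tested genes higher, none lower and a median of 3.18. *Slc10a2*, the apical transporter that takes up bile acids, stood at 436, 636 and 953 CPM in positive and 16.5, 49.5 and 64.8 CPM in negative cells (log2 fold change 3.95, SE 0.52, adjusted p = 1.00e-06). *Fabp6*, which carries them through the cell, stood at 1373, 1141 and 1391 CPM against 119, 167 and 172 CPM (3.09, SE 0.60, adjusted p = 0.000160). The basolateral exporter, made of *Slc51a* (220, 252 and 306 against 18.1, 30.7 and 28.7 CPM) and *Slc51b* (156, 356 and 331 against 17.0, 35.1 and 28.7 CPM), rose by 3.33 and 3.38. In all 4 of these genes the groups lay far apart.

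The nuclear receptor that senses bile acids, FXR, is encoded by *Nr1h4*, at 84.1, 72.9 and 80.4 CPM against 26.8, 28.3 and 31.4 CPM (log2 fold change 1.46, SE 0.28, adjusted p = 0.000127), and its partner by *Rxra* (1.55). Its target *Fgf15*, the hormone that tells the liver to make less bile acid, was at 6.08, 23.0 and 2.43 CPM against 1.07, 1.23 and 0.111 CPM (3.67, SE 0.95, adjusted p = 0.00351). Without the second positive library *Fgf15* had 2.37 and an adjusted p of 0.135. The canalicular exporter *Abcc2* rose by 3.18, and *Abcc3* did not pass (0.42, adjusted p = 0.274). *Nr0b2*, with counts of 0, 0 and 1 against 2, 0 and 0, and *Gpbar1*, with none in positive libraries and 1, 3 and 2 in negative ones, were too low to test.

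Vitamin B12 uptake split by step. *Cubn*, the apical receptor of intrinsic factor-bound B12, stood at 878, 627 and 969 CPM in positive and 29.4, 42.0 and 53.6 CPM in negative cells (log2 fold change 4.31, SE 0.47, adjusted p = 7.41e-08). Its partner *Amn* (1.84), the carrier *Tcn2* that brings B12 to the blood (2.73), the lysosomal protease *Lgmn* (2.80), the lysosomal export protein *Lmbrd1* (1.36), the cathepsins *Ctsl* (1.39) and *Ctsz* (0.81), the clathrin light chain *Cltb* (1.44) and the adaptor subunit *Ap2a2* (1.81) were higher as well. *Cd320*, the receptor for B12 from the blood, went down, with 0.323, 0.0601 and 0.221 CPM against 4.58, 6.28 and 5.82 CPM, and with it the B12-processing *Mmachc* (-4.13) and the exporter *Abcc1* (-3.22). *Dab2* (1.79), *Clu* (1.69) and *Ctse* (-1.53) did not pass, with at most 0.915 CPM in any library, and *Lrp2* was too low to test. Without the second positive library *Ctsl* had 0.98 (adjusted p = 0.0828). *Ctsz* lost its call without the second positive (0.66, adjusted p = 0.0970), the third positive (0.76, 0.0608) or first negative library (0.79, 0.0528). Of the 15 genes tested, 9 were higher and 3 lower, with a median of 1.44.

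Genes that digest nutrients at the brush border were higher in positive cells. Of 16 peptidases tested, 15 were higher and none lower, with a median of 3.69, with *Ggt1* (4.40), *Mme* (4.32), *Anpep* (4.14) and *Dpep1* (3.84) among them. *Anpep*, which trims amino acids from peptides, stood at 2707, 5733 and 5290 CPM against 125, 415 and 240 CPM. All 16 genes of sugar digestion and transport were higher, with a median of 3.21. They included the glucose-6-phosphatase *G6pc* (4.66), trehalase *Treh* (4.44), the basolateral transporter *Slc2a2* (4.41), *Slc5a4a* (4.03) and the fructose transporter *Slc2a5* (3.84). None of these sets of libraries overlapped.

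For amino acids and peptides, 15 of 20 transporters were higher and 2 lower, with a median of 2.25. *Slc6a19*, the main neutral amino acid carrier of the apical membrane, stood at 78.2, 270 and 338 CPM against 2.48, 13.4 and 14 CPM (log2 fold change 4.52, SE 0.52, adjusted p = 1.37e-07). *Slc7a15* (4.93), the dipeptide carrier *Slc15a1* (4.25), *Slc3a1* (3.73) and *Slc6a14* (3.50) also rose. The transporters that were lower, *Slc1a5* (-2.25) and *Slc7a5* (-1.91), supply glutamine and large neutral amino acids to dividing cells. *Slc1a5* was at 6.78, 6.01 and 3.53 CPM in positive and 29.2, 24.6 and 24.1 CPM in negative cells.

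Of 27 genes of fat absorption, 20 were higher and 1 lower, with a median of 2.53. *Apob*, the protein scaffold of chylomicrons, stood at 1124, 2858 and 3894 CPM against 112, 177 and 191 CPM (log2 fold change 4.04, adjusted p = 5.87e-08). The transcription factor *Creb3l3* (4.79), *Apoc3* (4.72) and the sterol importer *Npc1l1* (3.92) rose with it, and the acyl-CoA synthetase *Slc27a2* fell (-2.10). Of 11 genes of vitamin A handling, 6 were higher, among them *Aldh1a1* (3.89), which makes retinoic acid, *Dhrs9* (3.12), *Bco2* (2.58) and *Rdh7* (2.23), and 2 were lower, among them *Adh1* (-1.46). *Dhrs9* did not pass without the first (2.64, adjusted p = 0.0828) or the third negative library (2.62, 0.0791), nor *Adh1* without the second positive one (-1.20, 0.0580). In metal handling 7 of 17 were higher, with *Slc30a10* (5.18), the magnesium channel *Trpm6* (3.35), the iron oxidase *Heph* (2.68), the zinc importer *Slc39a4* (2.37) and the calcium pump *Atp2b1* (2.07), while the transferrin receptor *Tfrc* (-2.11) and metallothionein *Mt1* (-1.42, adjusted p = 0.0506 without the third positive library) were lower.

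**Figure D4:**
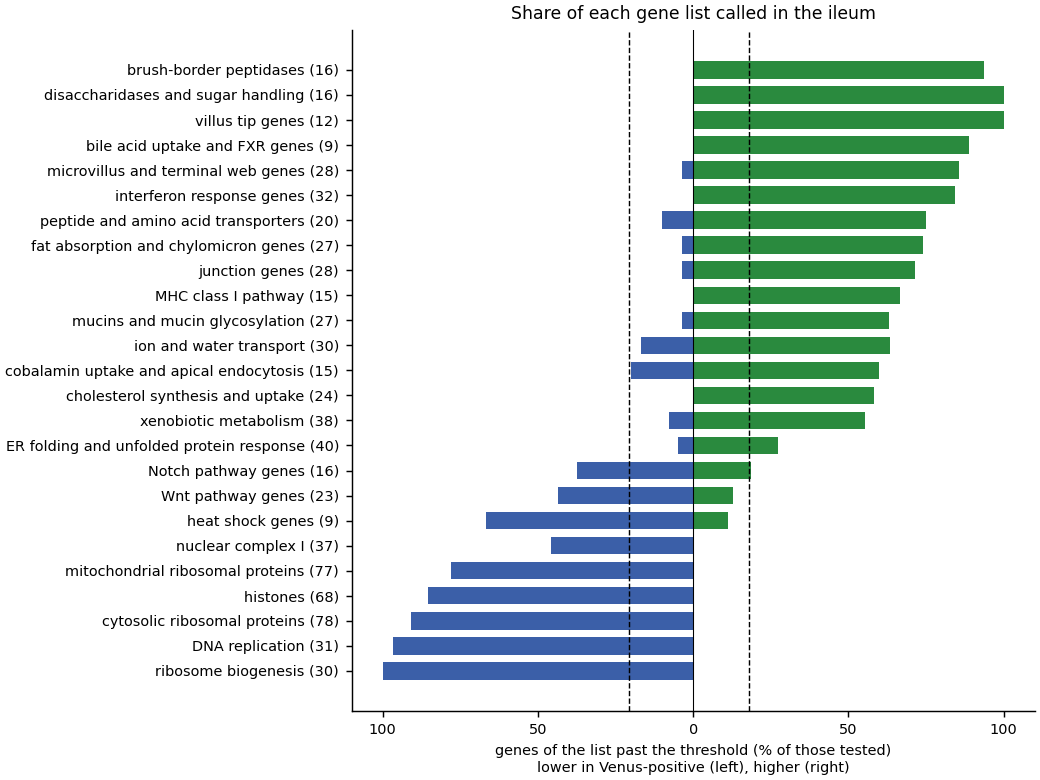
Percent of the tested genes of 25 lists (number tested in brackets) that were higher (bars to the right) or lower (bars to the left) in positive cells of the ileum, with dashed lines at the shares over all genes, 17.9% and 20.6%. All 16 sugar handling genes and 15 of 16 peptidases are higher, and all 30 ribosome biogenesis genes are lower.

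Of 30 genes of ion and water transport, 19 were higher and 5 lower, with a median of 1.88. Among the higher ones, the phosphate transporter *Slc34a2* was at 324, 600 and 652 CPM against 13.4, 36.6 and 27.1 CPM (log2 fold change 4.35, adjusted p = 5.87e-08). The glycerol channels *Aqp7* (4.61) and *Aqp3* (5.27, at 0.646, 0.901 and 2.87 CPM against at most 0.111 CPM) and the calcium-activated *Clca4b* (4.16) rose too. *Clca4a* was at 22.2, 667 and 999 CPM against 1.82, 18.8 and 42.1 CPM, and its groups overlapped although it passed the test (4.75, adjusted p = 7.28e-05).

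The 5 lower members were *Aqp4*, *Slc12a2*, *Kcne3*, *Kcnq1* and *Cftr*. *Slc12a2*, the basolateral importer that loads secreting cells with chloride, stood at 42.0, 23.1 and 27.8 CPM in positive and 369, 185 and 349 CPM in negative cells (log2 fold change -3.28, SE 0.42, adjusted p = 5.72e-07). The potassium channel *Kcnq1* and its partner *Kcne3*, which keep up the driving force for secretion, were lower by -2.95 and -3.16, and the water channel *Aqp4* by -4.07, at 1.83, 1.86 and 2.21 CPM against 29.6, 26.8 and 42.7 CPM. Of 33 potassium channels, counted as a family, 4 were higher and 8 lower, with *Kcnn4* at -3.74. The sorts did not overlap for *Slc12a2*, *Kcnq1*, *Kcne3*, *Aqp4* and *Kcnn4*, unlike for *Cftr* above.

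Microvillus and terminal web genes were higher in 24 of 28 cases and lower in 1, with a median of 2.04. *Cdhr2*, a protocadherin that links the tips of microvilli, stood at 635, 1129 and 1449 CPM against 65.2, 100 and 74.9 CPM (log2 fold change 3.74, adjusted p = 3.70e-08). The actin bundler *Espn* (3.84) and keratin *Krt20* (3.57) rose, and *Krt18* was lower (-0.83, adjusted p = 0.0935 without the second positive library, 0.0940 without the third and 0.0680 without the third negative library). Of 28 junction genes, 20 were higher and 1 lower, with a median of 1.10, led by *Ceacam20* (4.05), *Cldn4* (3.38), *Ceacam1* (2.43) and *Ctnna1* (1.84). *Cldn8* was the lower one (-2.98).

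Genes that mark the villus tip were all higher, 12 of 12, with a median of 3.18. Genes of the lower villus were higher too, in 6 of 7 cases with none lower and a median of 1.89. *Ada*, which removes the amino group of adenosine, was at 1.40, 122 and 75.9 CPM against 0.660, 6.10 and 6.15 CPM (log2 fold change 3.95, adjusted p = 0.000302), and the nucleoside carrier *Slc28a2* and the ectonucleotidase *Nt5e* (3.93 and 3.92) showed the same pattern. In each of these 3 genes the first positive library was near the negative ones and the groups overlapped. *Apoa4* (3.65), at 20.6, 50.4 and 107 CPM against 5.12, 3.70 and 5.38 CPM, did not overlap. Among 15 genes of purine handling 9 were higher and 2 lower, with the guanine deaminase *Gda* (3.96) and xanthine dehydrogenase *Xdh* (3.42) among the higher ones.

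Mucins and the enzymes that glycosylate them were higher in 17 of 27 cases and lower in 1, with a median of 1.38. The membrane mucin *Muc3*, of the enterocyte glycocalyx, stood at 675, 1469 and 1802 CPM against 67.8, 110 and 88.2 CPM (log2 fold change 3.89, adjusted p = 5.87e-08), and *Gcnt1* (3.64), *Galnt5* (3.17) and *St3gal1* (2.95), which build sugar chains on mucins, rose. *Muc4* fell (-1.80). Genes of folding in the endoplasmic reticulum moved little as a list, with 11 of 40 higher, 2 lower and a median of 0.14. The higher ones were led by *Agr2* (2.70), at 614, 304 and 240 CPM against 46.0, 64.6 and 67.7 CPM, and *Ern2* (2.01), which serve mucin folding in goblet cells. *Ern2* had an adjusted p of 0.0567 without the first positive library.

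Interferon-response genes were higher in 27 of 32 cases and lower in none, with a median of 2.69. *Irf7*, the factor that amplifies the interferon response, stood at 39.9, 136 and 106 CPM in positive and 3.47, 9.38 and 4.71 CPM in negative cells (log2 fold change 3.99, SE 0.44, adjusted p = 7.88e-08). The antiviral genes *Oasl1* (12.7, 40.9 and 42.5 against 0.165, 2.29 and 1.11 CPM) and *Ifit1* (6.35, 43.0 and 28.8 against 0.330, 2.12 and 0.554 CPM) rose by 4.72 and 4.64, and *Ifit3* and *Oas2* by 5.03 and 4.83. The groups did not overlap, and the first positive library was the lowest of its sort for all 5 genes. The guanylate-binding *Gbp6* (5.98) fell to 2.23 without the second positive library (adjusted p = 0.413) and did not pass without the first (5.52, 0.0677) or second negative library (5.46, 0.0692).

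Promoters of interferon genes are shown because the interferon-stimulated response element is known to sit there. Its letters GAAANNGAAA, on either strand, were in 13 of the 24 promoters of the list (54.2%) and in 3.49% of all promoters. Windows of 100 bases, again placed around the match nearest the start site, are given for *Ifit1* (chr19:34640759-34640858, plus strand), *Rsad2* (chr12:26456518-26456617, minus strand) and *Isg15* (chr4:156200830-156200929, minus strand), with matches in capitals.

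Ifit1: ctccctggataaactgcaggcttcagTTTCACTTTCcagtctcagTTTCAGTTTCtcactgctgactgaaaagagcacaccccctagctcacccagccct

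Rsad2: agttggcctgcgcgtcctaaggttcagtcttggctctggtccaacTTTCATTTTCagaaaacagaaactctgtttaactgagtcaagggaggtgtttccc

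Isg15: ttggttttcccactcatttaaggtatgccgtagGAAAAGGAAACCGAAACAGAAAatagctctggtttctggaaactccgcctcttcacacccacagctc

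The match nearest the start site lay 85 bases before it in *Ifit1*, 120 in *Rsad2* and 66 in *Isg15*, which held 3 overlapping matches of this motif. *Rsad2*, the antiviral viperin, was at 1.94, 11.5 and 14.8 CPM against 0.0825, 0.564 and 1.11 CPM (log2 fold change 4.04, adjusted p = 4.42e-05). *Isg15*, a ubiquitin-like modifier, was at 2.37, 10.1 and 11.1 CPM against 0.00, 0.987 and 0.998 CPM (3.56, adjusted p = 0.000229). Neither overlapped between the sorts.

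Antigen presentation by MHC class I rose in 10 of 15 genes and fell in none, with a median of 1.81. *H2-K1* stood at 197, 451 and 500 CPM against 45.3, 69.2 and 59.1 CPM (log2 fold change 2.72, adjusted p = 6.71e-07), and *H2-Q2* (3.27), *H2-Q1* (2.98), *H2-T3* (2.27) and the peptide transporter *Tap2* (2.22) were higher. Of 9 class II genes 3 were higher, namely *H2-Aa* (2.32), *H2-Ab1* (1.56) and the protease *Ctss* (1.97). *H2-Aa* and *H2-Ab1* did not pass without the second positive library (1.33 and 0.73, adjusted p = 0.201 and 0.377), the first negative (1.86 and 1.16, 0.0756 and 0.163) or the third negative library (2.23 and 1.57, 0.0526 and 0.0848). These genes have close copies within the MHC, so their levels are uncertain.

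Pattern recognition genes went both ways, with 9 of 25 higher and 6 lower. The inflammasome receptor *Nlrp9b* stood at 32, 35.0 and 29.1 CPM against 1.49, 3.21 and 1.22 CPM (log2 fold change 4.0, adjusted p = 1.24e-05), and the pore former *Gsdmd* (3.26), the flagellin sensors *Naip5* (2.76) and *Naip6* (2.12) and the cytokine *Il18* (2.43) rose. The gasdermins *Gsdmc3* (-3.90), *Gsdmc2* (-2.13) and *Gsdmc4* (-2.01) and the adaptor *Pycard* (-2.23) fell. Of 19 genes of epithelial chemokines, butyrophilins and IgA transport, 11 were higher, with the chemokines *Ccl6* (3.99) and *Cxcl16* (2.58) and the butyrophilin-like *Btnl2* (3.71), *Btnl6* (3.29) and *Btnl1* (2.79), a family known for shaping intraepithelial T cells. *Ccl28*, which draws IgA-secreting cells, was lower (-1.48, adjusted p = 0.0504 without the third negative library), and the IgA carrier *Pigr* was abundant in both sorts without passing, at 1017, 1048 and 756 CPM against 1027, 840 and 578 CPM (0.21, adjusted p = 0.637).

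Proliferation genes were lower in positive cells. All 30 genes of the cell cycle and mitosis were lower, with a median of -2.99, and 30 of 31 genes of DNA replication, with a median of -2.70. *Ccnb2*, a mitotic cyclin, stood at 0.969, 1.5 and 1.69 CPM in positive and 14.3, 19.1 and 28.0 CPM in negative cells (log2 fold change -3.88, SE 0.46, adjusted p = 2.19e-07). *Cdc20* (-4.26), *Aurkb* (-4.0), *Cenpa* (-3.55) and *Ube2c* (-3.35) fell with it, as did the replication genes *Gins1* (-4.24), *Uhrf1* (-4.13), *Mcm3* (-3.70), *Mcm2* (-3.61) and *Hells* (-3.44). No positive library reached a negative one in these 10 genes, as held for 4533 genes in all, called or not.

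Promoters of mitotic genes are shown for the cell cycle genes homology region, the element at which the DREAM complex represses them. Its letters TTTGAA, on either strand, were in 14 of the 22 promoters of the cell cycle list (63.6%) and in 18.1% of all promoters. The windows of 100 bases, placed in the same way, are from *Cdc20* (chr4:118437344-118437443, minus strand), *Ccnb2* (chr9:70421669-70421768, minus strand) and *Ube2c* (chr2:164769829-164769928, plus strand), with the match in capitals.

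Cdc20: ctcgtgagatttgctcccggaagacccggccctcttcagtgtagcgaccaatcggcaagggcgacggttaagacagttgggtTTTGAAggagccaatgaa

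Ccnb2: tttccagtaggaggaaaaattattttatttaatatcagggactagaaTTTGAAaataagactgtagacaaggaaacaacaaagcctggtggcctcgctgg

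Ube2c: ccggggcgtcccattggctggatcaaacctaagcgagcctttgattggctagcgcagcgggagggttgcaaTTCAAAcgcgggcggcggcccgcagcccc

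The matches lay 18, 167 and 29 bases before the start sites, so that the *Ccnb2* window ends well before its start site. The shorter letters CCAAT were in 18 of the 22 cell cycle promoters (81.8%), in 15 of 16 promoters of cholesterol genes (93.8%) and in 37.9% of all promoters. The E2F letters TTTCCCGC were in 1 of the 22 cell cycle promoters (4.55%, against 1.11% of all). The sterol regulatory letters TCACNCCAC were in 1 of the 16 cholesterol promoters (6.25%, against 1.22%), and the FXR element, an inverted repeat with a base between its arms, was in 0 of 9 promoters of bile acid genes (0.0296% of all). Of the remaining motifs searched, the CDX letters TTTATNA were in 5 of 18 enterocyte promoters (27.8%) and 3 of 9 bile acid promoters (33.3%, against 14.4% of all), the GATA letters AGATAA in 3 of 18 enterocyte promoters (16.7%, against 11.4%) and the E-box CACGTG in 3 of 16 cholesterol promoters (18.8%) and 2 of 9 bile acid promoters (22.2%, against 7.24%). Among the promoters of genes tested the share was 5.11% for the HNF4 letters, 2.96% for the interferon-stimulated response element, 12.2% for TTTGAA, 39.0% for CCAAT, 2.10% for E2F, 1.11% for the sterol letters, 7.05% for CDX, 6.71% for GATA and 10.2% for the E-box. No match says only that these letters are not in the promoter searched.

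The machinery of growth was lower as well. All 30 genes of ribosome biogenesis were lower, with a median of -2.5, led by *Polr1e* (-3.61), *Nop56* (-3.37), *Wdr75* (-3.32), *Fbl* (-3.20) and *Utp20* (-3.18). *Nop56*, a core protein of the particles that methylate ribosomal RNA, was at 1.67, 2.64 and 2.35 CPM against 19.5, 25.2 and 24.2 CPM (adjusted p = 1.81e-08). Of 78 cytosolic ribosomal proteins, 71 were lower and none higher, with a median of -2.03, and of 77 mitochondrial ones 60 were lower and none higher, with a median of -1.44. Histone genes were lower in 58 of 68 cases and higher in none, with a median of -2.52. *Hist1h1b* stood at 82.4, 64.6 and 50.2 CPM against 305, 430 and 764 CPM.

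Respiratory chain genes moved less. Of 37 nuclear subunits of complex I, 17 were lower and none higher, with a median of -0.82, led by *Ndufa4* (-1.80), *Ndufc2* (-1.61) and *Ndufb5* (-1.43). Of the 7 mitochondrially encoded subunits tested, *mt-Nd1* (-1.38), *mt-Nd2* (-1.19) and *mt-Cytb* (-0.97) were lower. *mt-Nd1* stood at 1371, 1340 and 595 CPM against 2422, 3538 and 2664 CPM. *mt-Nd2* did not pass without the third positive library (-0.95, adjusted p = 0.0562). Of the fits with 1 library left out, *mt-Cytb* passed only in that without the first positive one (adjusted p = 0.0533 to 0.210 in the others). Heat shock genes were lower in 6 of 9 cases, led by the mitochondrial chaperone *Hspd1* (-2.55) and its partner *Hspe1* (-2.19), and higher in 1, the inducible *Hspa1b* (3.91, adjusted p = 0.0285), at 0.808, 1.62 and 1.47 CPM against 0.0825, 0.141 and 0.00 CPM. *Hspa1b* has a near-identical copy, so its level is uncertain, and it did not pass without the second positive (3.72, adjusted p = 0.0665), the third positive (3.81, 0.0612), the first negative (3.94, 0.0794) or the third negative library (3.43, 0.104). Of 38 proteasome subunits, 12 were lower and none higher.

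Transcription factors of both lineages were among the higher genes. Of 14 secretory factors, 7 were higher and 3 lower, with *Atoh1*, which commits cells to secretion, at 20.9, 12.3 and 11 CPM against 1.86, 1.30 and 2.44 CPM (log2 fold change 2.99, SE 0.52, adjusted p = 3.88e-05). *Klf4* (3.45), *Gfi1* (3.29), *Spdef* (2.73) and *Creb3l4* (1.80) were higher, while *Neurog3*, *Sox4* (-4.10) and *Sox9* (-2.70) were lower. Of 33 enterocyte and regional factors, 12 were higher and 3 lower, with a median of 0.62. *Maf*, a factor of mature villus cells, stood at 314, 258 and 268 CPM against 23.5, 24.6 and 14.5 CPM (3.74, adjusted p = 8.13e-09). *Prdm1* (4.24), *Hnf4g* (2.44) and *Klf6* (2.12) were higher and *Hes1* (-2.03), *Nr5a2* (-1.05) and *Ehf* (-0.92) lower. *Cdx2*, the factor of intestinal identity, did not pass (0.41, adjusted p = 0.288). Without the second positive library *Nr5a2* had -0.84 (adjusted p = 0.0568) and *Ehf* -0.82 (0.0610), and without the third *Ehf* had -0.83 (0.0608).

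Wnt and Notch genes, which maintain the crypt, were next. Of 23 Wnt pathway genes, 10 were lower and 3 higher, with a median of -1.24. The target genes *Myc* (-4.80), *Cd44* (-3.66), *Ephb2* (-3.11) and *Ephb3* (-2.68) were lower, and *Tcf7l2* (1.70) and *Ctnnb1* (1.24), which encode the nuclear effectors, were higher. *Cd44* stood at 4.52, 1.5 and 3.38 CPM against 46.7, 27.6 and 45.6 CPM. Of 16 Notch genes, 6 were lower and 3 higher, with *Notch1* at 4.90, 4.81 and 1.99 CPM against 40.3, 28.0 and 18.3 CPM (log2 fold change -2.88, adjusted p = 5.42e-06), *Dtx4* at -2.98 and the ligand *Dll4* at 2.05.

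BMP and hedgehog genes, which act on the villus, were higher in 8 of 18 cases and lower in 2, with the ligand *Bmp2* at 33.5, 18.9 and 25.1 CPM against 4.74, 3.99 and 2.88 CPM (log2 fold change 2.73, SE 0.33, adjusted p = 2.97e-07), *Bmp1* at 3.31 and the inhibitor *Smad7* at 2.35, and with *Ptch1* (-1.99) and *Bmp3* (-1.98, adjusted p = 0.0610 without the second positive library) lower. EGF ligands and receptors were higher in 8 of 11 cases and lower in none, with epiregulin *Ereg* (3.02), amphiregulin *Areg* (2.17, adjusted p = 0.0693 without the first negative library) and *Erbb3* (1.81). Immediate early genes, which respond to stress and dissociation as well as to growth factors, were higher in 11 of 18 cases and lower in 1, led by *Klf4* and *Atf3* (3.34). Of 26 apoptosis genes 12 were higher and 2 lower, led by *Pmaip1* (3.05) and the death receptor *Fas* (3.02).

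Xenobiotic metabolism was higher in 21 of 38 genes and lower in 3, with a median of 1.60. *Cyp3a11*, which oxidises many drugs, stood at 18.2, 31.0 and 29.1 CPM against 1.03, 0.564 and 1.77 CPM (log2 fold change 4.57, SE 0.42, adjusted p = 1.21e-08), and *Cyp3a25* (4.67), *Cyp2d26* (3.60) and *Cyp4f14* (3.40) rose. The epoxide hydrolase *Ephx1* (-2.76) and the glutathione transferase *Gstm1* (-1.54, and -1.07 with an adjusted p of 0.0651 without the first negative library) were lower. As families, 20 of 39 cytochromes P450 were higher and 1 lower, and 1 of 19 glutathione transferases was higher and 6 lower. Of 34 ABC transporters, 11 were higher and 5 lower, with a median of 0.91. The drug pumps *Abcg2* (2.87) and *Abcb1a* (2.77) and the sterol pair *Abcg8* (2.59) and *Abcg5* (2.39) were among the higher ones and *Abcc1* (-3.22) among the lower ones.

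In energy metabolism, 10 of 29 genes of fatty acid oxidation and PPAR targets were higher and 3 lower, and 10 of 21 of glycolysis were higher and 2 lower. The lactate exporter *Slc16a3* (4.06) and pyruvate kinase *Pklr* (2.5) rose. Of 6 kynurenine and aryl hydrocarbon receptor genes tested, *Ido1* alone passed. Redox enzymes were mixed, with 7 of 21 higher, led by *Prdx5* (2.12), and 3 lower, *Nox1* (-3.33), *Gpx1* (-1.64) and *Prdx6* (-1.25). *Nox1* did not pass without the second positive (-2.92, adjusted p = 0.0553) or the third negative library (-1.68, 0.211).

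Among large families, solute carriers were higher in 105 of 259 cases and lower in 31, Rab GTPases, which direct vesicle traffic, in 25 and 2 of 56, and unconventional myosins in 9 and 2 of 18. *Rab27a* (2.47), known for granule release, and *Myo1a* (2.87), the motor of the microvillus, were among the higher ones. Of 322 zinc finger proteins of the Zfp series, 72 were lower (22.4%, against 20.6% of all genes) and 7 were higher (2.17%, against 17.9%), with a median of -0.84. Of 20 Hox genes, which mark position along the gut, none was higher and 2 were lower. Of 479 processed pseudogenes tested, 6 were higher and 81 lower, and their reads may belong to their parent genes.

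The sort difference was then compared between regions by interaction contrasts, which share the ileum libraries. Between ileum and jejunum 40 of 15044 genes differed (0.266%), against 1580 (10.5%) for the duodenum and 419 (2.79%) for the colon. These counts depended on the test, the filter and single libraries. The jejunum count was 128 with DESeq2, 143 with no filter on low counts, 94 with the i5 index as a covariate and 26 in a fit of the compared regions alone, and the colon count was 857 with DESeq2 and 259 with scaling by library size alone. Without the first or second negative library of the ileum the jejunum count was 24 or 26, and without the third positive library the duodenum count was 1039. The colon count was 660 without the first positive, 228 without the second positive, 183 without the third positive, 200 without the first negative and 265 without the second negative library.

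Enterocyte markers had medians of 3.49 in the ileum, 2.96 in the jejunum, 0.18 in the duodenum and 1.49 in the colon. For 17 of the 20 the ileum and duodenum differences differed by the interaction test, for 8 the ileum and colon differences, and for none those of ileum and jejunum. For goblet markers the median was 3.37 in the ileum and 5.95 in the duodenum, and 15 of 17 differed there. For the stem cell list the medians were -3.29, -3.16, -0.75 and -1.19 in ileum, jejunum, duodenum and colon. Bile acid genes had medians of 3.18 and 1.61 in ileum and jejunum, but none of the 9 differed by the interaction test.

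Of the lists, cholesterol synthesis and uptake held the largest number of genes that differed between ileum and jejunum, 4 of 24. As a share the lower villus genes held more, 2 of 7, with medians of 1.89 in the ileum and -0.57 in the jejunum. Of the cholesterol genes, 14 of 24 were higher in the ileum and none lower, with a median of 1.12, while the jejunum median was -0.89. *Hmgcs1*, which starts sterol synthesis, stood at 182, 205 and 344 CPM in positive and 30.6, 39.0 and 69.3 CPM in negative cells of the ileum (log2 fold change 2.40, SE 0.49, adjusted p = 0.000272), and *Sc5d* (1.88), *Hsd17b7* (1.78) and *Tm7sf2* (1.73) followed. Interaction passed for 4 genes, among them the squalene epoxidase *Sqle* (ileum 1.67, jejunum -1.33, difference 3.01, adjusted p = 0.00778), the squalene synthase *Fdft1* (1.65, -1.22, 2.87, adjusted p = 0.00591) and the master regulator *Srebf2* (1.04, -0.58, 1.61, adjusted p = 0.0337). *Sqle* was at 54.6, 82.3 and 101 CPM against 14.2, 30.8 and 29.5 CPM in the ileum, without overlap. *Srebf2* missed the threshold without the second positive (1.57, adjusted p = 0.0856), the third positive (1.57, 0.101), the first negative (1.66, 0.0869), the second negative (1.70, 0.0609) or the third negative library (1.48, 0.0713). In the fit of the compared regions alone *Sqle* had 3.01 (adjusted p = 0.0575) and *Srebf2* 1.60 (0.0768).

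**Figure D5:**
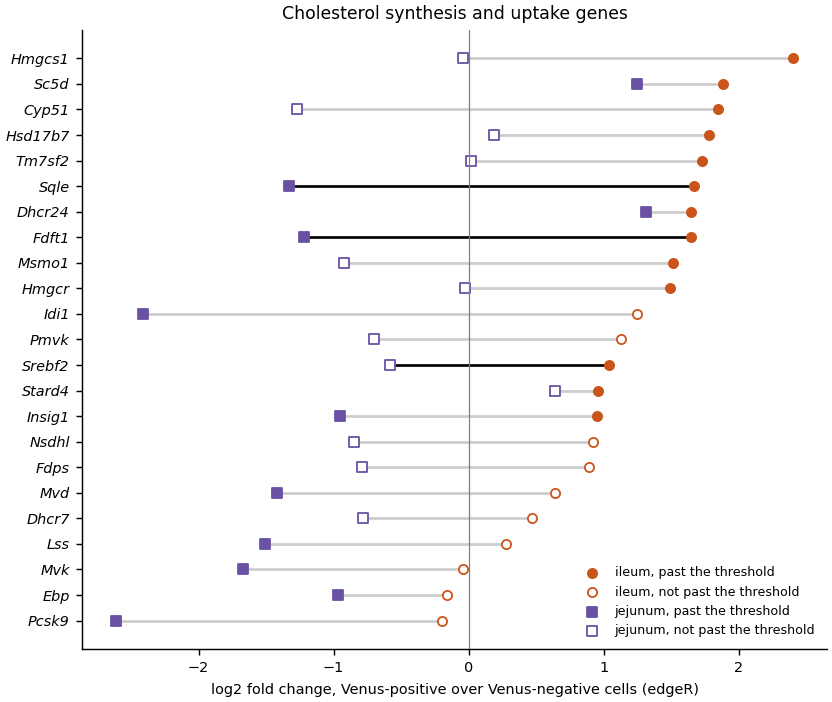
Log2 fold change (Venus-positive over Venus-negative) of 23 of the 24 cholesterol genes in the ileum and in the jejunum, joined by a line for each gene, with filled points past the threshold and a black line where the interaction passed. *Sqle* lies at 1.67 in the ileum and -1.33 in the jejunum, and black lines mark *Sqle*, *Fdft1* and *Srebf2*.

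Of the 40 genes, 29 had the higher sort difference in the ileum and 11 the lower. *Car4*, a carbonic anhydrase of the brush border, stood at 18.5, 60.6 and 50.2 CPM against 8.13, 16.1 and 13.6 CPM in the ileum (log2 fold change 1.77), with -2.71 in the jejunum and a difference of 4.48 (SE 0.75, adjusted p = 0.00436). *Sema3c*, a secreted guidance protein, had 0.82 and -3.61 (difference 4.43, adjusted p = 0.00106), *Aldh1a1* 3.89 and 1.09 (2.80, 0.00106) and *Il18* 2.43 and -0.68 (3.11, 0.00308). *S100g*, the calcium carrier calbindin-D9k, had 1.24 and -4.25 (5.50, 0.00993), and the fatty acid desaturase *Scd1* had 2.04 and -2.51 (4.55, 0.0325). *Gcnt1* (8.64, 0.0127) and *ccdc198* (7.15, 0.00439) had no count in positive cells of the jejunum, so their fitted differences are no bound. The difference for *Scd1* did not pass without the first positive (4.12, adjusted p = 0.0788), first negative (4.45, 0.0981) or second negative library (4.27, 0.0877). In the fit of the compared regions alone neither *Scd1* (4.54, 0.101) nor *S100g* (5.46, 0.113) passed.

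In the other direction the endoplasmic reticulum factor *Creb3l2* had a log2 fold change of 0.51 in the ileum and 3.35 in the jejunum (difference -2.85, adjusted p = 0.00857). The calcium release channel *Itpr1* had -1.5 and 1.13 (-2.63, 0.00857), the water channel *Aqp1* -0.49 and 2.11 (-2.60, 0.00848), *Pisd*, which makes phosphatidylethanolamine, -0.30 and 2.30 (-2.59, 0.0164) and *Gstm1* -1.54 and 1.17 (-2.71, 0.0319). Differences against duodenum and colon were ranked among genes past the threshold with a mean of at least 5 CPM in 1 ileum sort. Against the duodenum *Tat*, *Pyy* and *Ereg* had the largest positive differences (8.68, 7.94 and 6.92), all with no count in positive cells of the duodenum. In negative cells there their means were 0.447, 1.83 and 0.118 CPM. The largest negative differences were those of *Pxdn* (-5.58), the protease *Capn8* (-5.23) and *Eif2b3* (-4.66). Against the colon the largest positive differences were those of *Rhebl1* (5.50), *Slc25a48* (5.13) and *Slc23a4* (4.85). The largest negative ones were, after *Plekhh2* (-19.48), those of the adrenergic receptor *Adra2a* (-4.66) and *Spdl1* (-4.41). In the fit of the compared regions alone *Aqp1* (-2.60, 0.0627) and *Gstm1* (-2.74, 0.218) did not pass against the jejunum. The difference for *Gstm1* did not pass without the third positive (-2.32, adjusted p = 0.100) or first negative library (-2.24, 0.173), and that for *Spdl1* passed in no fit with 1 library left out (adjusted p = 0.0518 to 0.109).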

How the data were processed

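RNA of FACS-sorted cells was sequenced with a SMARTer stranded total RNA pico kit and single-end reads. The authors deposited raw counts per gene. The submitters' processing notes name CASAVA and STAR 2.5.1, while the annotation and strand setting of the counting are not given in the sources used here, so overlapping antisense genes are uncertain. Rows for reads outside genes (no feature 26.0 to 35.3%, several places 19.4 to 27.1%) were left out. All 24 libraries entered 1 edgeR quasi-likelihood fit (edgeR 4.0.16, limma 3.58.1, R 4.3.3) with a coefficient for each of 8 groups, TMM factors, filterByExpr with a minimum count of 10 and Benjamini-Hochberg adjustment over 15044 genes. The fit was also run on simulated data in which few genes were changed, all upward. That simulation did not cover changes in both directions or in 38.5% of genes, as found here. Alternatives were DESeq2 1.42.0, RLE factors, library size alone, 2 other filters, protein-coding genes alone, the i5 index, the compared regions alone and each ileum library left out. Gene positions come from GENCODE vM21 and 32851 promoter sequences of 27025 symbols from RefSeq. In these 10 motifs, chosen after seeing the results, were searched with Python 3.11.15. Floors of detection cover counting error only.

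The members and the 54 lists and 50 families were chosen with earlier results of these data known. Genes were named as the guanylin genes and markers, up to 5 leaders per list and direction, all bile acid and cobalamin genes, the 12 largest changes per direction (at least 5 CPM), the 15 highest levels per sort and the largest region differences. *Cdx2*, *Chga*, *Ddc*, *Epcam*, *Fdft1*, *Foxa3*, *Gcg*, *Ghrl*, *Hnf4a*, *Insl5*, *Irf7*, *Isg15*, *Mptx1*, *Pigr*, *Ptprc*, *Retnlb*, *Rsad2*, *Sct*, *Slc18a1*, *Sqle*, *Srebf2* and *Sst* were named after their values were seen. Some genes that the rule names are not reported here.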

Additional observations from a re-analysis of the deposited data

Results flagged for a closer look

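The sort difference of 40 genes differed between ileum and jejunum in edgeR's interaction test, of 1580 genes between ileum and duodenum and of 419 genes between ileum and colon. Over the alternatives run the counts were 24 to 143, 1039 to 2112 and 183 to 857. What follows are the log2 differences (ileum minus the other region) of the genes the text names.

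Against the jejunum the difference was 8.64 for *Gcnt1*, 7.15 for *ccdc198*, 5.50 for *S100g*, 4.55 for *Scd1*, 4.48 for *Car4*, 4.43 for *Sema3c*, 4.27 for *Slc6a14*, 3.11 for *Il18*, 3.09 for *Trpm6*, 3.05 for *Sct*, 2.80 for *Aldh1a1* and 2.20 for *Ehf*. For cholesterol genes it was 3.01 (*Sqle*), 2.87 (*Fdft1*) and 1.61 (*Srebf2*). It was negative for *Plekhh2* (-22.96), *Creb3l2* (-2.85), *Gstm1* (-2.71), *Itpr1* (-2.63), *Aqp1* (-2.60) and *Pisd* (-2.59). In the jejunum *Slc6a14* was near the floor, with means of 0.184 CPM in positive and 0.318 CPM in negative cells. The call was lost for *Slc6a14* without the second positive (adjusted p = 0.0849), first negative (0.0951) or second negative library (0.0705) of the ileum, for *Trpm6* without the second positive (0.0611), first negative (0.0816) or the third negative library (0.0587), for *Sct* without the first (0.0869) or second negative library (0.0570) and for *Plekhh2* without the first, the second or the third positive library (0.0535, 0.0641 and 0.0834). With scaling by library size alone the call was lost for *Ehf* (1.78, adjusted p = 0.131), *Trpm6* (2.73, 0.0874), *Slc6a14* (3.92, 0.0609), *Scd1* (4.31, 0.0533) and *Srebf2* (1.24, 0.390), with RLE factors or no filter on low counts for *Srebf2* (1.54, 0.0587 and 1.57, 0.0813), and in a fit of the compared regions alone for *Slc6a14* (4.27, 0.0768).

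Against the duodenum the difference was 8.68 for *Tat*, 7.94 for *Pyy*, 6.92 for *Ereg*, -5.58 for *Pxdn*, -5.23 for *Capn8* and -4.66 for *Eif2b3*. *Tat*, *Pyy* and *Ereg* had no count in positive cells of the duodenum, so these values are no bound. In negative cells of the duodenum they were low too, with means of 0.447, 1.83 and 0.118 CPM. Against the colon it was 5.50 for *Rhebl1*, 5.13 for *Slc25a48*, 4.85 for *Slc23a4*, -4.66 for *Adra2a*, -4.41 for *Spdl1* and -19.48 for *Plekhh2*, whose high counts lay in 2 negative libraries of the ileum and 1 positive library of the colon. The call for *Spdl1* was lost without any 1 ileum library (adjusted p = 0.0518 to 0.109), with library size alone (0.0520) and in a fit of the compared regions alone (0.0680).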

How the results depend on the processing

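The counts of higher and lower genes in the ileum, 2688 and 3101, stayed within 1.5 times under every alternative run, at 2140 to 2934 and 2217 to 3349, and no gene called in one direction was called in the other. The number of genes that differed from the jejunum (40) was 128 with DESeq2, 143 with no filter on low counts, 94 with the i5 index as a covariate and 26 in a fit of the compared regions alone, and 24 to 52 with 1 ileum library left out. The number that differed from the colon (419) was 857 with DESeq2, 259 with scaling by library size alone and 183 to 660 with 1 library left out. For the duodenum (1580) leaving out 1 library gave 1039 to 1884. The cause was not tested. Of 4492 values of named genes in the ileum, 4317 kept their direction and side of the threshold, 150 no longer passed and 15 passed only under an alternative. The call in the ileum was lost for *Col1a1*, *Gnat3*, *H2-Aa*, *H2-Ab1*, *Pou2af1* and *Slc23a4* with DESeq2, for *Gnat3* and *mt-Cytb* with RLE factors, for *Ankrd60*, *Anxa5*, *Cftr*, *Ctsz* and *Tnfrsf11a* with library size alone, for *Anxa5*, *Gnat3*, *Krt18*, *Pou2af1*, *Tagln* and *Tnfrsf11a* with no filter on low counts, for *Ankrd60*, *H2-Ab1*, *Reg4* and *Tnfrsf11a* with at least 10 counts in every ileum library, for *Col1a1*, *Col3a1* and *Slc23a4* with the i5 index and for *Ankrd60*, *Anxa5*, *Cftr*, *Gstm1*, *Krt18*, *Reg1*, *Slc23a4* and *mt-Cytb* in a fit of the 6 ileum libraries alone. With no filter *S100g* passed too (1.31, adjusted p = 0.0169). The sign turned in 10, all of genes that did not pass. With 1 library left out, *Ptprc* ran from -1.96 to 0.53, *Pyy* from -0.23 to 0.78, *Foxa3* from -0.10 to 0.64, *Capn8* from -0.05 to 0.62, *Insl5* from -2.10 to 5.44 and *Retnlb* from -0.45 (without the second positive library) to 7.0. With at least 10 counts in every ileum library *Pyy* had -0.01. Of 453 differences between regions, 410 kept their call and 43 lost it. No paired analysis was made, because the labels name no mouse and the replicate numbers follow accession order. Whether libraries of the same number share a mouse is not known, and a fit blocked on that number was not run. For *Retnlb* and *Sct*, which did not pass, each positive library lay above the negative library of the same number. This also held for *Ada* and *Clca4a*, whose groups overlapped, while *Pyy* and *Ghrl* went both ways. Low genes are limited by depth, with floors of 0.106 to 0.221 CPM.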
